A study of Homo sapiens with 8 samples.

Results

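The chromosome 19 miRNA cluster, C19MC, was examined in a multiple myeloma (MM) cell line after inhibition of EZH2. Members were taken by name alone. Their names begin with miR-498, miR-512, miR-1283, miR-1323 or a number from miR-515 to miR-527 that belongs to the cluster. A letter was required after miR-517, so the cluster arm miR-517-5p, which was detected on no array, was not taken. The rule gave 47 mature miRNAs among the 2549 human miRNAs on the array. They stem from 40 of the 45 cluster genes that RefSeq lists from MIR512-1 to MIR516A2. All samples come from INA-6, an established MM line of human origin that is grown with interleukin-6. The DMSO group held 4 arrays of cells given the solvent, and the UNC1999 group held 4 arrays of cells given 1 μM of UNC1999, a small-molecule inhibitor of EZH2, for 120 hours (5 days). The titles number the samples of each group as biological replicates. They name DMSO as the control whereas the protocol in the labels names UNC2400, an inactive form of the inhibitor, and the samples were taken as DMSO controls.

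C19MC is a primate-specific block of related miRNA genes on the long arm of chromosome 19, best known for its expression in the placenta. It is silent in most adult tissues, and its activity has been linked to pluripotent cells and some tumours. EZH2 is the catalytic subunit of PRC2, which places the repressive mark H3K27me3 on chromatin, so the comparison asks whether silent members became measurable once EZH2 was inhibited. A seed is the stretch of bases near the 5′ end of a miRNA that pairs with a target mRNA. Some 3p arms of the cluster share a seed with miR-302 3p arms, miR-372-3p and miR-373-3p of pluripotent cells. Others share one with the miR-17 family of proliferating cells.

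Mature sequences were taken from RefSeq (GRCh38.p14), where 42 members matched by name and 3 more by a newer name that adds an arm (miR-498, miR-520b and miR-520e). No sequence was taken for miR-518f-3p and miR-522-3p. The 45 sequences held 29 different seeds, of which 11 were held by more than 1 member and 18 by a single member. The members detected on any array, miR-520b and miR-520e, both had the most frequent seed, AAGUGCU. The 5 members with that seed are shown first, because they bear on which members were seen, with the seed (bases 2 to 8) in capitals:
miR-520b: aAAGUGCUuccuuuuagaggg
miR-520e: aAAGUGCUuccuuuuugaggg
miR-520c-3p: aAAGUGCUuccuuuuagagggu
miR-520a-3p: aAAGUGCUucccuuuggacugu
miR-520d-3p: aAAGUGCUucucuuuggugggu
Both detected members are 21 bases long and differ at 1 base, A16U from miR-520b to miR-520e with positions counted from the 5′ end. miR-520c-3p is the sequence of miR-520b with 1 further base at its 3′ end. miR-520b lies at chr19:53701267-53701287, miR-520e at chr19:53675764-53675784 and miR-520c-3p at chr19:53707506-53707527, all on the plus strand of GRCh38.p14. In gene order MIR520E is number 5 of the 45 and lies between MIR498 and MIR515-1, whereas MIR520B is number 18 and lies between MIR518F and MIR518B.

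Relatives outside the cluster with the same seed, and the miR-17 type of seed that is shifted by a base, are shown for comparison:
miR-372-3p: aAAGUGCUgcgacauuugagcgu
miR-373-3p: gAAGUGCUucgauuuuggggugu
miR-302a-3p: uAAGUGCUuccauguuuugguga
miR-526b-3p: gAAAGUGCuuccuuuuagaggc
miR-519d-3p: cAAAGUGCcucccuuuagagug
miR-17-5p: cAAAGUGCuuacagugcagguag
Of these, miR-526b-3p and miR-519d-3p are themselves members of C19MC. miR-526b-3p shares a run of 20 bases with miR-520b.

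Each array held 53144 spots, among them 940 for members, which is 20 per member spread over 2 to 4 probes. None of the member spots was saturated. Precision is limited by the number of arrays, since an exact permutation test of 4 against 4 cannot go below p = 0.029. The scanner software marked between 369 and 500 human miRNAs as detected per array, with the lowest numbers on DMSO replicates 2 and 3 (369 and 370). Before scaling, the 75th percentile of the signal was 419 ± 119 (SD, n = 4) for DMSO and 664 ± 88.3 (SD, n = 4) for UNC1999, so that the treated arrays were brighter on average. The part of this difference in the detection of dim miRNAs was not tested. Arrays were also alike in pairs, DMSO replicates 1 and 4 with UNC1999 replicates 1 and 3 against the others, and their values did not settle whether alike arrays of a group are separate samples. Each array was counted as a sample, as the titles number biological replicates and the paper describes 4 independent experiments for its miRNA heatmap. If alike arrays are not separate, the errors and p-values given here may be too small. As a check of the labelled cell type, miR-142-3p, miR-142-5p and miR-150-5p of blood cells were detected on all 8 arrays and miR-155-5p on 2. The 11 markers of liver, neurons, muscle, epithelium, pluripotent cells and red cells were detected on none.

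Most of C19MC was not measurable in INA-6 cells under either condition. Of the 47 members, 45 were detected on 0 of 8 arrays, 2 were detected on at least 1, and 0 were detected on all 8. Among all human miRNAs on the array, 22.3% were detected on at least 1 array, against 4.26% of the members. On the DMSO arrays of replicates 1 to 4 the numbers of members detected were 1, 0, 0 and 2, and on each UNC1999 array it was 2. Both members that appeared were the same on every UNC1999 array.

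The 45 undetected members lay around the level of background. Their scaled signal, which is the background-subtracted intensity summed over probes and brought to a common 75th percentile, ran from -14.9 to 12.4 with a median of 0.69. Negative control spots had a median intensity of 1.16 to 2.79 and an SD of 3.35 to 3.68 per spot before scaling. Each array was given a floor of 8.98, below which signals were set to that value, and 42 of the undetected members never rose above it. The 3 undetected members that passed the floor on some array were miR-515-5p, miR-525-3p and miR-516a-5p, each on DMSO arrays.

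**Figure D1:**
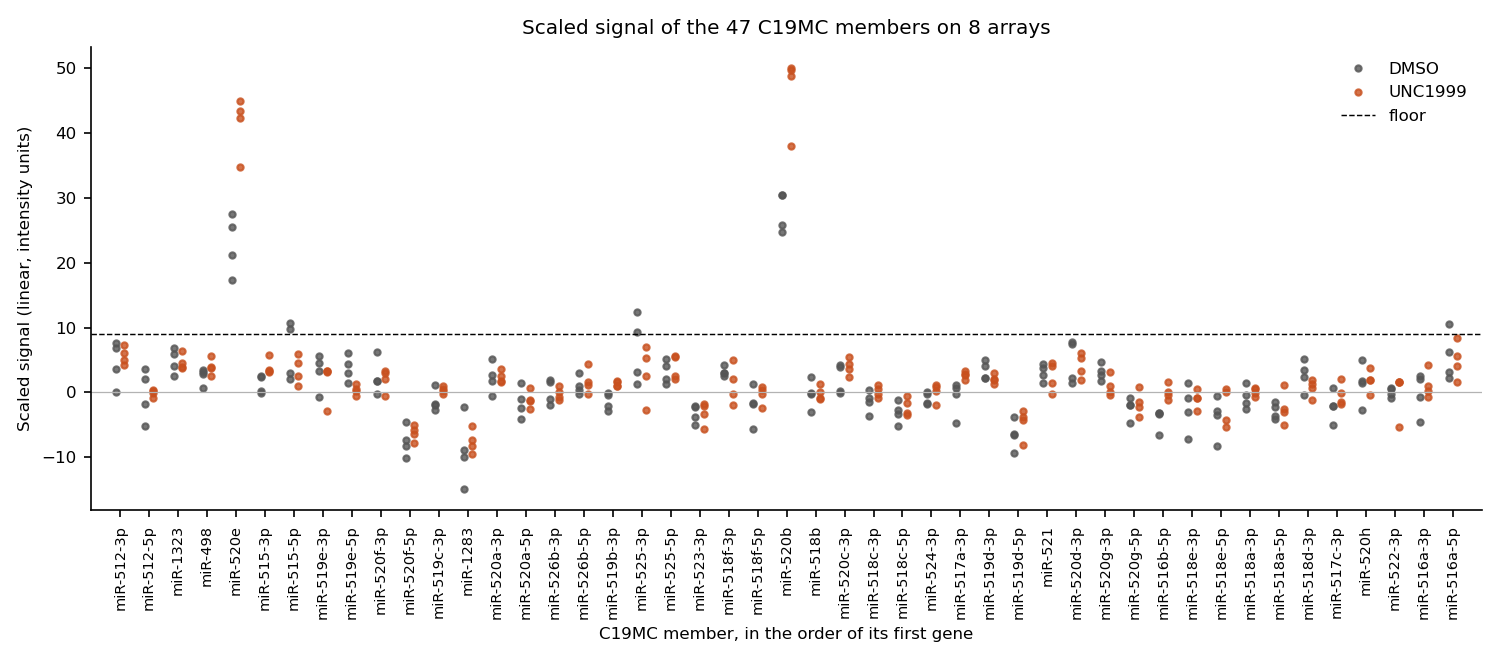
Scaled signal on a linear axis (intensity units) of all 47 C19MC members, in the order of the first gene of each, with 1 point per array for the DMSO (grey) and UNC1999 (orange) groups and the floor of 8.98 as a dashed line. Only miR-520e and miR-520b stand clear of the floor on every array.

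The undetected members with the highest mean over the 8 arrays were miR-516a-5p, miR-512-3p and miR-515-5p. The scaled signal of miR-516a-5p was 6.16, 3.09, 2.15 and 10.6 on the DMSO arrays and 8.42, 5.58, 4.11 and 1.61 on the UNC1999 arrays. That of miR-512-3p was 0.10, 6.79, 7.62 and 3.59 against 6.06, 4.19, 4.95 and 7.36, and that of miR-515-5p was 9.77, 2.01, 10.74 and 3.06 against 4.53, 2.57, 5.90 and 0.98. For each of the 3 the groups overlapped. By group means 30 of the 45 undetected members were higher after UNC1999 treatment and 15 were lower, with median means of 0.04 for DMSO and 0.66 for UNC1999. The same split was not counted over all human miRNAs, and these signals lie around background. No rise of the cluster is therefore read from it. Counting all 47 members, every UNC1999 array lay above every DMSO array for 6, where 12.1% of all human miRNAs did so, and below for 1, where 12.3% did so. The 6 were miR-520b and miR-520e together with miR-515-3p, miR-519b-3p, miR-517a-3p and miR-516b-5p, which were undetected on all arrays. The member that lay lower was miR-519e-5p.

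miR-520b and miR-520e were higher after UNC1999 treatment. Both are 3p arms of the cluster's miR-520 group, which have been studied as regulators of cell growth. The scaled signal of miR-520b was 30.5, 24.7, 25.8 and 30.4 on the DMSO arrays and 49.8, 38.0, 50.0 and 48.8 on the UNC1999 arrays. The lowest treated array, replicate 2, still lay above the highest DMSO array. miR-520b was marked as detected on 2 of 4 DMSO arrays, replicates 1 and 4, and on 4 of 4 UNC1999 arrays.

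For miR-520e the scaled signal was 25.5, 17.3, 21.2 and 27.5 on the DMSO arrays and 43.4, 34.8, 45.0 and 42.2 on the UNC1999 arrays. Here too the groups did not overlap, and UNC1999 replicate 2 was again the lowest of its group. miR-520e was marked as detected on 1 of 4 DMSO arrays, replicate 4, and on 4 of 4 UNC1999 arrays. DMSO replicates 2 and 3, on which neither member was detected, also had the lowest number of human miRNAs detected. On every DMSO array, marked as detected or not, both members lay above the floor of 8.98.

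**Figure D2:**
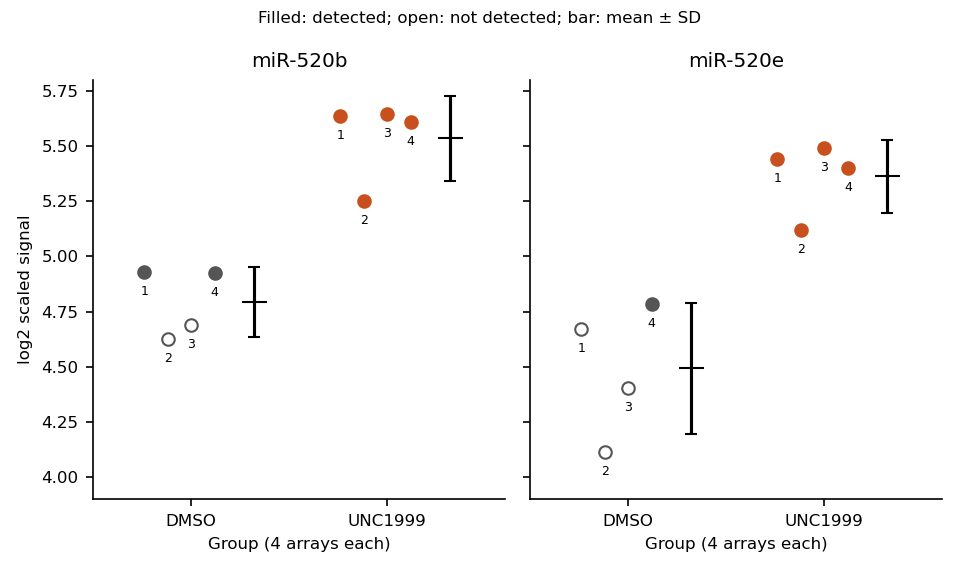
The log2 scaled signal of miR-520b and miR-520e on each array, with the replicate number beneath the point, filled where the scanner software marked the miRNA as detected, and the mean ± SD of the 4 arrays per group. All 4 UNC1999 arrays lie above all 4 DMSO arrays for both miRNAs.

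On the log2 scale miR-520b rose from 4.79 ± 0.16 (SD, n = 4) to 5.54 ± 0.19 (SD, n = 4). The difference, a log2 fold change, was 0.74 (SE 0.13; adjusted p by limma, 7.62e-04), or 1.67-fold. miR-520e rose from 4.49 ± 0.30 (SD, n = 4) to 5.36 ± 0.17 (SD, n = 4), by 0.87 (SE 0.15; adjusted p by limma, 9.87e-04), or 1.83-fold. As miR-520b and miR-520e were marked as detected on only 2 and 1 of the DMSO arrays, these folds rest on DMSO signals close to background and are approximate. In an exact permutation test of the 8 arrays (two-sided) each gave p = 0.029, the smallest this design allows. That value records only that the groups did not overlap, which in this direction held for 12.1% of all human miRNAs. Both members were singled out because they were detected, on every array only in the UNC1999 group. The p-values given here are not free of that selection. A fold change is relative to the other miRNAs on the same array. Without scaling between arrays the log2 fold changes were 1.44 and 1.57, where the median miRNA tested also rose by 0.67.

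With the filter on detection, 2 of 2 members tested were called higher and 0 lower, where 36.0% of the 456 miRNAs tested were called higher and 34.6% lower. That split moved with the processing, since 164 of 322 calls were higher here, 234 of 238 without scaling and 54 of 304 with normexp background correction. Both members passed that filter through the UNC1999 arrays alone. Of the 100 miRNAs detected on all 4 UNC1999 and fewer than 4 DMSO arrays, which are 3.92% of all, 56.0% were called higher, against 31.2% of the 346 detected on all 8 arrays. With all 2549 human miRNAs tested and no filter on detection, miR-520b (limma adjusted p = 0.022) and miR-520e (limma adjusted p = 0.034) were again called, as 2 of 47 members, and 0 members were called lower. In that test 2.82% of all human miRNAs were called higher and 4.94% lower. A miRNA at the floor on every array could not be called in either direction, which lowers both shares. None of the other 45 members was called, and 42 of them lay at the floor on every array.

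The direction of both rises was not kept in the setting with normexp background correction. That setting started from median spot and background intensities, modelled the background and added an offset of 50 to every spot. The offset was added before the probes were summed and the arrays scaled. Under that setting the log2 fold change was -0.21 for miR-520b (limma adjusted p = 0.145) and -0.32 for miR-520e (limma adjusted p = 0.040), and miR-520e was called lower. What part the offset, the scaling and the choice of intensities had in this was not tested. The median miRNA tested moved by -0.32 under that setting, so that relative to it miR-520b lay 0.11 higher and miR-520e lay level with it. The probes of both gave less than the offset on every array. Under the other alternatives in which they were tested, miR-520b ranged from 0.61 to 3.89 and miR-520e from 0.55 to 4.02, and each remained higher.

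**Figure D3:**
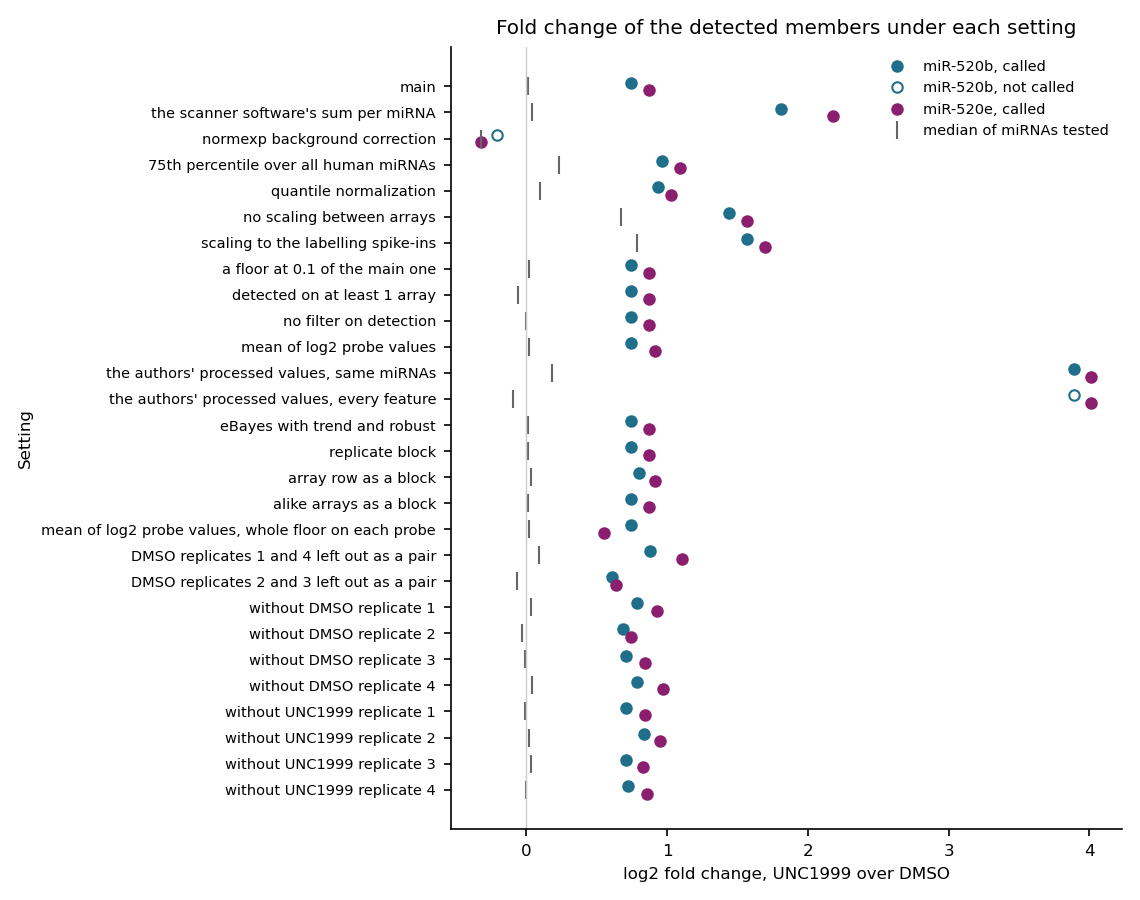
Log2 fold change (UNC1999 over DMSO) of miR-520b and miR-520e under each alternative processing, filled where called, with the median of all miRNAs tested as a grey tick. The values lie above the median throughout, except with normexp background correction, where miR-520e lies on it at -0.32.

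The probes of each member moved the same way. The 2 probes of miR-520b, with 10 spots each, gave a mean spot intensity before scaling of 7.58 to 14.7 and 7.14 to 18.1 on the DMSO arrays, and of 23.1 to 37.5 and 26.6 to 33.8 on the UNC1999 arrays. After scaling the groups did not overlap for either probe (exact permutation test, two-sided, p = 0.029 each). Of the 20 spots, 4, 0, 0 and 1 were well above background on the DMSO arrays and 20, 16, 20 and 18 on the UNC1999 arrays.

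The 3 probes of miR-520e, with 7, 7 and 6 spots, were dimmer. They gave 0.87 to 12.8 on the DMSO arrays and 13.02 to 23.73 on the UNC1999 arrays before scaling, without overlap in any of the 3. After scaling, the groups did not overlap for the first and second probes and overlapped for the third (exact permutation test, two-sided, p = 0.029, 0.029 and 0.057). No fold is given for single probes of either member, because few of their spots were well above background on the DMSO arrays. Of the 20 spots, 1, 0, 0 and 0 were well above background on the DMSO arrays and 9, 0, 12 and 3 on the UNC1999 arrays. UNC1999 replicate 2 thus had 0 such spots although the miRNA was marked as detected there. When detection was taken as most spots of at least 1 probe being well above background, 1 member, in place of 2, was detected on all 4 UNC1999 arrays.

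**Figure D4:**
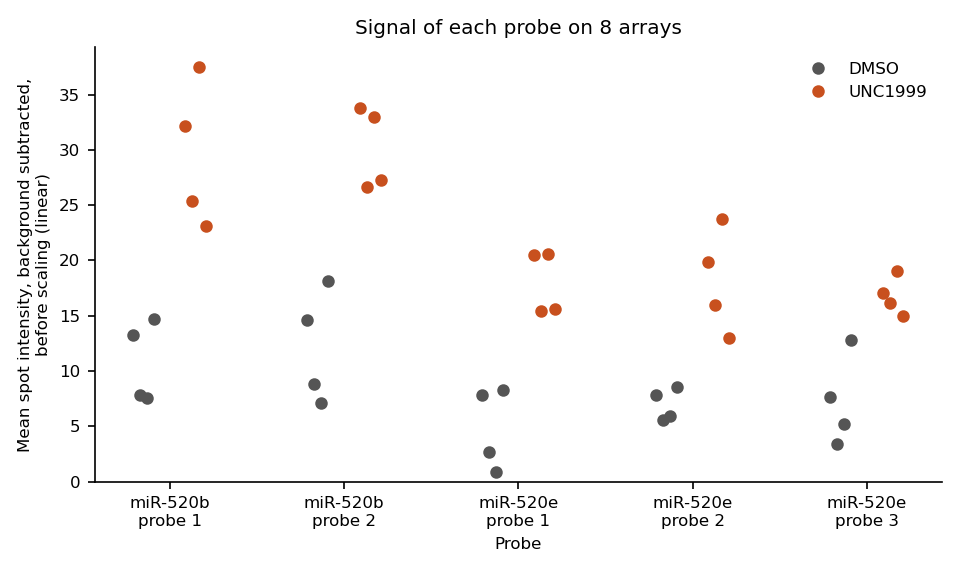
Mean spot intensity of each probe of miR-520b (2 probes) and miR-520e (3 probes) before scaling, on a linear axis from 0, with 1 point per array in the DMSO (grey) and UNC1999 (orange) groups. The groups do not overlap for any of the 5 probes, and the third probe of miR-520e leaves the smallest gap.

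The sequences of miR-520b and miR-520e differ at 1 base, and their signals moved together. The log2 ratio of miR-520e to miR-520b within an array was -0.30 ± 0.15 (SD, n = 4) for DMSO and -0.17 ± 0.04 (SD, n = 4) for UNC1999, a difference of 0.13 (exact permutation test, two-sided, p = 0.143). Whether a probe for either also binds the other was not tested. miR-520c-3p, which carries the whole of miR-520b, had scaled signals of -0.04, 0.23, 3.95 and 4.25 on the DMSO arrays and 3.61, 2.41, 4.38 and 5.40 on the UNC1999 arrays, all below the floor. The same was true of miR-520a-3p and miR-520d-3p. Thus 3 of the 5 members with the seed AAGUGCU were detected on no array.

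Outside C19MC the seed AAGUGCU occurs in 7 further human miRNAs on the array, the miR-302 3p arms, miR-302e, miR-372-3p and miR-373-3p. All 7 were detected on 0 of 8 arrays, as were all 12 arms of the cluster of miR-302 and miR-367. The genes of miR-371, miR-372 and miR-373 follow C19MC on chromosome 19, and 2 of their 8 arms were detected, miR-371a-5p and miR-371b-5p, each on all 8 arrays. The log2 signal of miR-371a-5p was 6.98 ± 0.03 (SD, n = 4) with DMSO and 7.07 ± 0.17 (SD, n = 4) with UNC1999, a difference of 0.09 (SE 0.11; adjusted p by limma, 0.440). For miR-371b-5p the levels were 8.01 ± 0.13 (SD, n = 4) and 8.31 ± 0.33 (SD, n = 4), a difference of 0.30 (SE 0.16; adjusted p by limma, 0.112). Neither was called here, but both were called higher without scaling (0.79 and 1.00) and with scaling to the labelling spike-ins (0.92 and 1.12). The median miRNA tested also rose under these settings, by 0.67 and 0.79. miR-371b-5p was also called higher with a 75th percentile taken from every human miRNA (0.52), with the alike arrays as a block (0.30) and without UNC1999 replicate 3 (0.40). With normexp background correction miR-371a-5p stood at -0.25 and miR-371b-5p at 0.17, and neither was called. The 3p arms with the shared seed, miR-372-3p and miR-373-3p, were not measurable, so the neighbouring cluster gave no signal for the seed that marks the detected members.

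The miR-17 seed AAAGUGC is held by the members miR-519d-3p and miR-526b-3p, which were detected on no array, and by the oncogenic miR-17 family. The 5 members of that family on the array, miR-17-5p, miR-20a-5p, miR-20b-5p, miR-93-5p and miR-106b-5p, were detected on all 8 arrays and all 5 were called lower. The log2 fold change was -0.92 for miR-17-5p (SE 0.11; adjusted p by limma, 1.1e-04) and -0.43 for miR-106b-5p, and the others lay between -0.94 and -0.55. Without scaling, or with scaling to the labelling spike-ins, miR-93-5p and miR-106b-5p turned higher and none of the 5 was called. Scaling by a 75th percentile taken from every human miRNA left miR-106b-5p (-0.21) and miR-93-5p (-0.33) uncalled, and normexp background correction left miR-106b-5p (-0.23) uncalled.

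A feature of the detected members that their selection did not use is the 3′ end. Both end in GAGGG, as no other member with a sequence does. This feature was chosen after the values were seen, and is given as a description. Among 2251 human miRNAs on the array with a RefSeq sequence, 5 end in these bases (0.222%, read 5′ to 3′ on the mature strand), and they are shown with this end in capitals:
miR-520b: aaagugcuuccuuuuaGAGGG
miR-520e: aaagugcuuccuuuuuGAGGG
miR-188-5p: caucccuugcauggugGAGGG
miR-3648: agccgcggggaucgccGAGGG
miR-6784-5p: gccggggcuuuggguGAGGG
The end was read from miR-520b and miR-520e, and the 3 miRNAs outside C19MC are too few for a conclusion about it. miR-188-5p and miR-3648 were detected on 8 arrays and miR-6784-5p on 6. The 3 were called higher, where 36.0% of the 456 miRNAs tested were. miR-6784-5p passed the filter on detection through the UNC1999 arrays alone, the group in which it was higher. As the end was chosen after the values were seen, this count is no evidence about it. The share called higher was 31.2% among miRNAs detected on all 8 arrays. It was 56.0% among those detected on all 4 UNC1999 and fewer than 4 DMSO arrays. The log2 fold changes of the 3 that lie outside C19MC were 0.71 for miR-188-5p, 0.57 for miR-3648 and 0.67 for miR-6784-5p. With normexp background correction miR-6784-5p turned lower (-0.24) and miR-3648 was not called (0.02). miR-6784-5p was also not called with no filter on detection (adjusted p by limma, 0.080), with the scanner software's sum (0.052) or with the authors' log2 values for the same miRNAs (0.076) or for every feature (0.129). miR-520c-3p, with 1 base after the same run, was not detected.

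**Figure D5:**
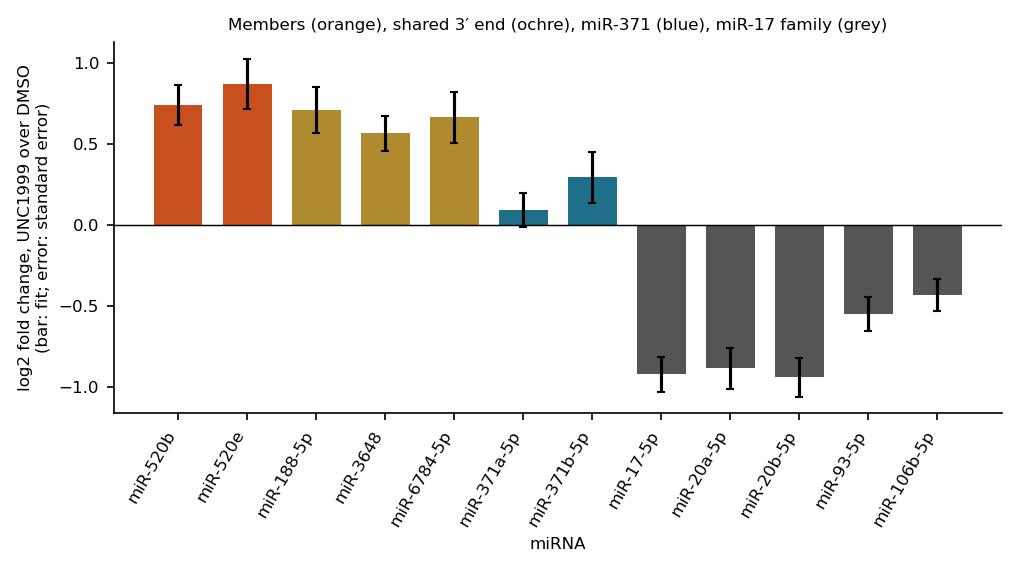
Log2 fold change (UNC1999 over DMSO) with its standard error for the detected members (orange), the other miRNAs that end in the same 5 bases (ochre), the miR-371 arms (blue) and the miR-17 family (grey). The orange bars, for the members from which the end was read, stand at 0.74 and 0.87. The ochre bars lie between 0.57 and 0.71, and the 5 grey bars between -0.94 and -0.43.

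The table of log2 values that the authors deposited beside the scanner output listed all 47 members. Of these, 45 stood at the lowest value of the array on all 8 arrays. miR-520b was listed at 0.80, -3.13, -3.13 and 0.90 for DMSO and at 2.85, 2.37, 2.92 and 2.87 for UNC1999. miR-520e was listed at -3.31, -3.13, -3.13 and -0.83 for DMSO and at 2.02, 0.62, 2.13 and 0.90 for UNC1999. The DMSO values near the lowest value mark arrays without detection, so the differences between groups in that table, 3.89 and 4.02, rest on that floor.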

How the data were processed

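RNA of INA-6 cells was hybridized to 8 single-colour miRNA arrays on 1 slide. The authors deposited scanner output made with Agilent Feature Extraction 10.7.3.1, per the submitters' processing notes, in which the intensity of each spot is background-subtracted and not normalized between arrays, and a table of normalized log2 values of the same arrays. Gene order and sequences came from RefSeq (GRCh38.p14).

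Intensities were averaged per probe without outlier spots, summed per miRNA, divided by the array's 75th percentile (taken from the 346 miRNAs that all 8 arrays detected), rescaled to the geometric mean of these percentiles, set to at least 8.98 (the lowest scaled signal among detected miRNAs, as the median of the arrays) and log2-transformed. A miRNA was tested if every array of either group detected it (456 miRNAs). The moderated test of limma 3.58.1 (R 4.3.3) was run with no blocking factor. Calls required p, adjusted by Benjamini-Hochberg, to be 0.05 or less, with a change of 1.2-fold or more. The steps were tested on simulated data. Single values were compared by exact permutation of the 8 arrays.

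The members and lists were chosen with earlier results of these data known. Every member detected on at least 1 array, the 3 others with the highest mean signal, and every detected neighbour or seed relative were named, and the miRNAs sharing a 3′ end were added later. Alternatives were other signal columns, background corrections, scalings, floors, filters, probe summaries, thresholds, variance models and blocks, the authors' log2 values, and leaving out each array. The mean of log2 probe values used the floor divided by the number of probes. The whole floor on each probe, and leaving out DMSO arrays in alike pairs, were added after seeing the data.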

Additional observations from a re-analysis of the deposited data

Results flagged for a closer look

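The log2 scaled signal of miR-520b on the array of UNC1999 replicate 2 was 5.25, set apart from the other 3 arrays of its group, which lay between 5.61 and 5.64. It was the 1 outlying value among 24 groups of 4 arrays examined, where chance gives about 1.2. Without this array the log2 fold change of miR-520b was 0.84, and it was still called.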

How the results depend on the processing

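The calls of miR-520b and miR-520e kept their direction and side of the threshold under most alternatives, but not all. With each array left out in turn the log2 fold change ranged from 0.69 to 0.84 for miR-520b and from 0.74 to 0.97 for miR-520e, members called higher from 2 to 2 and lower from 0 to 0, members detected on all DMSO arrays from 0 to 0 and on all UNC1999 arrays from 2 to 2, and all miRNAs called from 292 to 326. With normexp background correction the log2 fold changes were -0.21 and -0.32, with 0 members called higher and 1 lower. With detection required on all 8 arrays 0 members were called higher, because 0 were tested. With every feature of the authors' log2 values 1 member was called higher, since miR-520b (3.89) had a limma adjusted p of 0.062. With the spot-level mark of detection 1 member was detected on all UNC1999 arrays. Over all settings the limma adjusted p ran from 6.04e-05 to 0.145 for miR-520b and from 6.95e-06 to 0.040 for miR-520e. The cause of these differences was not tested beyond the fewer miRNAs or arrays that enter.

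The number of all miRNAs called moved from 322 to 198 without a filter, 206 with every feature of the authors' values and 175 at a fold of 1.5. The share called higher moved with scaling and background, to 54 of 304 with normexp, 192 of 280 with the percentile over all human miRNAs, 234 of 238 without scaling and 299 of 306 with the labelling spike-ins. Without scaling and with the spike-ins, the log2 fold change was 0.15 and 0.28 for miR-93-5p and 0.27 and 0.39 for miR-106b-5p. It was -0.24 for miR-6784-5p with normexp. Same-numbered samples did not deviate together (correlations 0.18, 0.27, -0.42 and -0.39), and with the replicate block 308 miRNAs were called, with 2 members higher and 0 lower.

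The arrays were alike in pairs across the second principal component (15.0% of the variance), and whether alike arrays of a group are separate samples was not settled. With DMSO replicates 1 and 4 left out as a pair the log2 fold changes were 0.88 for miR-520b and 1.10 for miR-520e, and with replicates 2 and 3 left out they were 0.61 and 0.64, both called. Signal over background limits what can be said of the 45 undetected members, for which a change below the floor would not be seen.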
